A study of Mus musculus with 4 samples.

Results

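The ATP-binding cassette (ABC) efflux transporters described here are 10 genes, Abcc1 to Abcc5, Abcb1a, Abcb1b, Abcg2, Abca1 and Abcg1, which encode membrane pumps for conjugates, drugs and sterols. They were chosen by name, as the array probes annotated with one of these symbols, and not by a cutoff on measured values. Earlier results of these data were known when they were chosen. All 10 were on the array, with 19 probes among the 61307 probes of the design (49826 genes and transcripts by name). An older-symbol search also returned Abcb4 and Pgp, both older names of Abcb1a, but the accessions of those probes belong to other genes, so they were not counted as members. RNA was measured on one-colour Agilent arrays. The cells were C3H10T1/2, fibroblasts of mouse embryo origin in which chemical transformation is scored as piled-up foci. All samples came from cells transformed in culture with the polycyclic hydrocarbon MCA (2.5 µg/ml for 2 days) and then, for 2 weeks, the tumour-promoting phorbol ester TPA (100 ng/ml), followed by 4 weeks in normal medium. One group (2 arrays) received nothing further, and the other (2 arrays) received diethyl maleate, DEM, at 0.25 mM. DEM is electrophilic and depletes glutathione by reacting with it. The sources used here do not give how long DEM was applied, or whether the cells came from 1 transformed colony or many.

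ABC transporters couple ATP hydrolysis to the movement of a substrate across a membrane. The ABCC exporters, also called multidrug resistance proteins, carry organic anions, among them the glutathione conjugates that form when an electrophile meets glutathione. The ABCB1 proteins (P-glycoproteins) and ABCG2 expel hydrophobic drugs, whereas ABCA1 and ABCG1 hand cholesterol to apolipoproteins and lipoprotein particles.

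A level here is the log2 of the signal of a probe over the 75th percentile on its array. A level of 0 is therefore that percentile. Levels of different genes were not ranked against each other, and within a gene the levels of its probes served to pick the brightest. The 75th percentile itself was 701.3 and 747.2 signal units without DEM, and 449.9 and 412.5 with it. Between 47.3% and 52.1% of spots on an array were well above background, the mark the scanner software sets. All 10 fibroblast markers were well above background on every array, and 5 of 10 fell with DEM, where 11.8% of all genes tested were lower. That count was 7 after quantile normalization, and 2 with spike-in scaling or when either untreated array was left out. Their summed signal was 1570 and 1630 times the 75th percentile in untreated cells against 871 and 1270 with DEM, and its part in the transporter results was not tested. Among markers of other cell types, Ptprc, Adgre1 and Itgam (macrophage), Cdh5, Cldn5 and Kdr (endothelial), Cdh1 and Krt18 (epithelial) and Adipoq and Plin1 (adipocyte) were not well above background on any array. Other markers of these lists were, on every array: Cd68 and Lyz2 (macrophage), Krt8 and Krt14 (epithelial) and Fabp4, Lpl and Pparg (adipocyte). The endothelial marker Tek was well above background on both untreated arrays and on neither DEM array. The summed signal of each of the macrophage, endothelial and epithelial lists was 0.0726 to 0.567 times the 75th percentile, and that of the adipocyte list 15.0 to 17.6 times. In such bulk RNA, fewer cells of a type and less RNA per cell cannot be told apart. All 4 arrays lay on 1 slide, and array position and treatment cannot be told apart. Separate cultures for the 2 arrays of each group are not mentioned in the labels, so the p-values reflect spread between samples that may be only technical.

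The study compared DEM-exposed with untreated transformed cells to see how DEM changes expression, and glutathione is named in its title. RNA of the anion exporters Abcc1 and Abcc4 and of the P-glycoprotein gene Abcb1b rose with DEM, by 1.92-fold, 2.98-fold and 6.41-fold. RNA of Abcc3, Abcg2 and Abca1 fell, by at least 10.1-fold, 1.99-fold and 4.93-fold. With another background correction (normexp) the fall of Abcc3 was smaller than that bound. Abcc5 differed by 0.31 on the log2 scale and did not pass the test, and Abcc2, Abcb1a and Abcg1 were too dim to test. A gene was tested where a probe was well above background on at least 2 of the 4 arrays, and 7 of the 10 members met this. Abcc3 met it through the untreated arrays alone, so it could be tested only because its untreated level was high enough. Of the 7, 3 were higher and 3 lower at an adjusted p under 0.05, while 27.2% of all 24658 genes tested were called (15.5% higher and 11.8% lower). In level, the 2 groups of arrays did not overlap for any of the 7 tested members (4 higher, 3 lower). The same was true of 68.5% of all genes tested (42.4% higher and 26.0% lower). The median log2 change was 0.31 over the tested members and 0.16 over all genes tested.

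**Figure D1:**
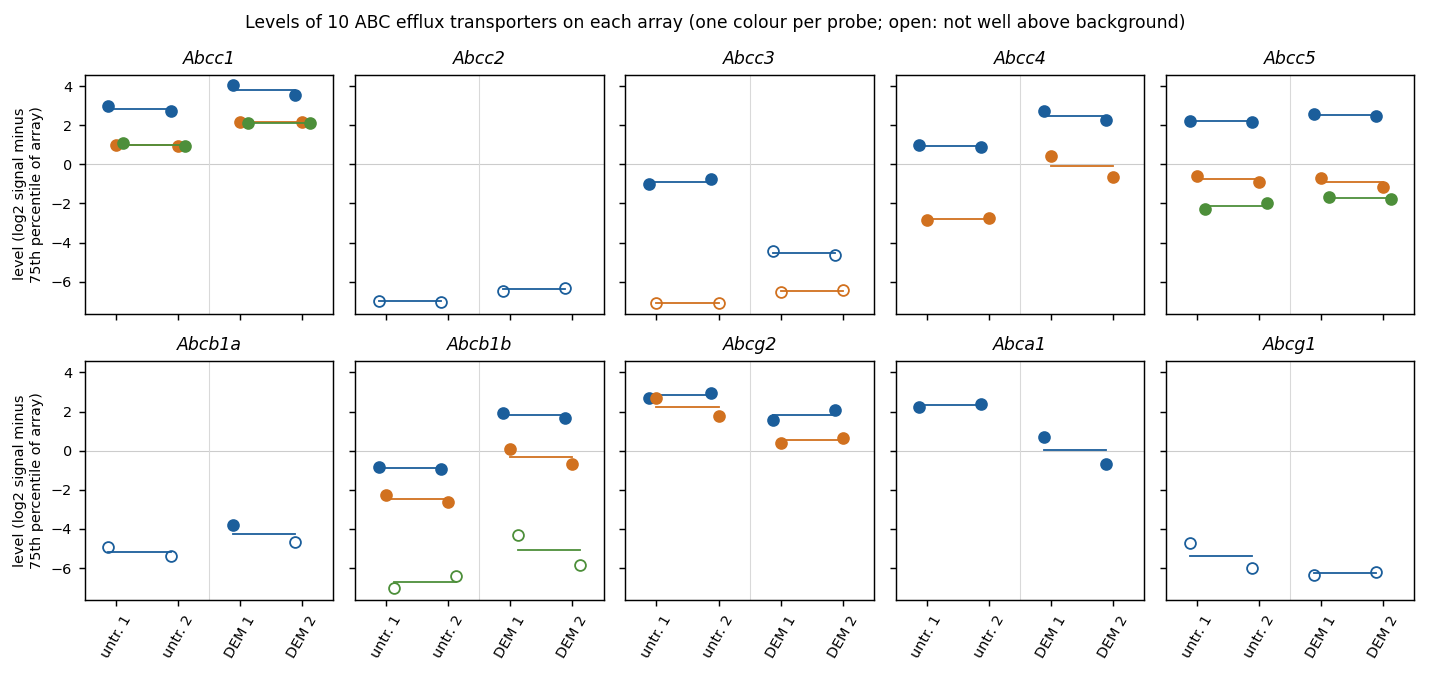
Level of each probe of the 10 transporters on each array (y axis, log2 of signal over the 75th percentile), one colour per probe, with the group mean as a line and open circles where the spot was not well above background. In the Abcb1b panel the brightest probe goes from -0.81 and -0.93 to 1.94 and 1.68, in the Abcc3 panel only the untreated spots of one probe are filled, and the orange Abcg2 probe carried an outlier mark on untreated array 1.

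Abcc1 encodes MRP1, an exporter of glutathione conjugates and cysteinyl leukotrienes. It had 3 probes, and the brightest stood for the gene, as for every gene here. Without DEM its level was 2.97 and 2.71, and with DEM 4.03 and 3.54. The DEM arrays were the higher ones and the groups did not overlap. The log2 change was 0.94 ± 0.22 (SE, n = 2 per group; adjusted p = 0.0282). Before scaling, signals of this probe were 5482.4 and 4899.1 units in untreated cells and 7328.8 and 4785.4 with DEM, so the groups overlapped in raw signal and separated once each was divided by the 75th percentile. The call was lost after quantile normalization (adjusted p = 0.0622), cyclic loess (0.0716), spike-in scaling (0.976) and without the variance trend (0.0551), and without untreated 1 (0.0969) or untreated 2 (0.171). The other two probes rose by 1.19 ± 0.18 and 1.11 ± 0.18 in level (adjusted p = 0.0068 and 0.00899 in a fit over all probes). Their raw signals did not overlap between groups (1392.9 and 1436.6 against 2002.6 and 1850.6 units, and 1472.4 and 1421.2 against 1945.4 and 1765.3). These 2 probes share 19 bases, so they are not independent readings of the transcript, and their sequences are given to show how far they coincide, with the shared run in capitals.
Abcc1, probe 3: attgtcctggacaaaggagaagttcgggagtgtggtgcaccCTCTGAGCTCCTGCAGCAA
Abcc1, probe 2: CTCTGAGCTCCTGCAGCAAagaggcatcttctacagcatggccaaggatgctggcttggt

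Abcc4 encodes MRP4, which exports cyclic nucleotides and prostaglandins as well as conjugates. Untreated cells had levels of 0.96 and 0.86, and DEM-exposed cells 2.71 and 2.26. Both DEM arrays were above both untreated arrays by more than the spread within either pair. The log2 change was 1.57 ± 0.22 (adjusted p = 0.00571). The second Abcc4 probe, dimmer on every array, stood at -2.85 and -2.72 in untreated cells and at 0.44 and -0.64 with DEM. It rose by 2.69 ± 0.38 (adjusted p = 0.00598), so both probes moved up. Without untreated 2 the Abcc4 call was lost (adjusted p = 0.0554), as it was when arrays were scaled to the spike-in RNA (0.422).

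The start regions of the members were searched for TGACNNNGC, the core of the antioxidant response element through which NRF2, a transcription factor that responds to electrophiles, binds DNA. The RefSeq promoter table (GRCm38.p6, 250 bases before to 50 after each start) held 10 starts for 7 members, and Abcc1, Abcc3 and Abcg1 were not among them. On either strand, 4 of the 10 starts, in Abcc4, Abcc2 and Abcb1a, held the motif, against 12.4% of all 32851 starts in the table. The searched members Abcb1b, which rose, Abcc5, which did not pass, and Abcg2 and Abca1, which fell, held no match. Abcc2 and Abcb1a were too dim to test. A match describes the letters in the window and no more. Abcc4 carried it at both of its starts, and these windows are shown because Abcc4 rose on both probes. Each is 100 bases on the minus strand, chr14:118706220-118706319 for the upstream start and chr14:118676932-118677031 for the downstream one, with the match in capitals (in the first it is on the other strand).
Abcc4, upstream start: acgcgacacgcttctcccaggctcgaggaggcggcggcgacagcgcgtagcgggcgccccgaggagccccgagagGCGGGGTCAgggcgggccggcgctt
Abcc4, downstream start: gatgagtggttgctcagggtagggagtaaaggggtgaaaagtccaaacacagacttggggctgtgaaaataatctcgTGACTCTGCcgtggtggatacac

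Abcc5 encodes MRP5, another exporter of cyclic nucleotides. Its 3 probes did not pass the test. The brightest had levels of 2.21 and 2.17 in untreated cells and 2.55 and 2.45 with DEM, a difference of 0.31 ± 0.17 (adjusted p = 0.215). In level the arrays did not overlap, with both DEM arrays higher. Before scaling, signals of this probe were 3234.3 and 3357.0 units in untreated cells and 2626.3 and 2255.6 with DEM. In raw signal both DEM arrays were thus the lower ones. The remaining probes differed by -0.15 ± 0.26 and 0.43 ± 0.25 (adjusted p = 0.705 and 0.24), and they did not share a direction.

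Abcc3 encodes MRP3, which carries glucuronide and bile acid conjugates across the basolateral membrane of liver and gut cells. One of its 2 probes had levels of -1.02 and -0.75 without DEM and of -4.45 and -4.62 with it. In signal units this was 344.9 and 445.4 against 20.6 and 16.8, and neither DEM spot was well above background. With the processing used throughout, Abcc3 was at least 10.1-fold lower with DEM. This is the mean of the untreated arrays over the lowest level well above background on each DEM array. Abcc3 passed the filter through the untreated arrays alone, so a fall was the only call it could give (adjusted p = 0.0011). The measured log2 difference was -3.65 ± 0.26. It was -1.78 with normexp background correction, which adds an offset of 50 to every signal, and this is below that bound. The other Abcc3 probe was not well above background on any array, untreated ones included, with signals from 4.8 to 5.5 units. The fall of Abcc3 was thus read by 1 probe. The dim probe is shown because it carries the same transcript accession as the bright one and gave no signal above background in the same cells.
Abcc3, dim probe: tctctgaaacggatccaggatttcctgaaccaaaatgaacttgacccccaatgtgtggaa

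Abcc2 encodes MRP2, the exporter of the bile canaliculus. Its probe was not well above background on any array, and its signals were 5.5 and 5.7 units in untreated cells and 5.1 and 5.2 with DEM. Divided by the 75th percentile these became levels of -6.99 and -7.03 against -6.46 and -6.32. The DEM arrays were thus the lower ones in signal and the higher ones in level. Neither difference was read as a change. The single Abcc2 start held the antioxidant core as well, shown here for contrast with Abcc4 (100 bases on the plus strand of GRCm38.p6, chr19:43782165-43782264, match in capitals).
Abcc2: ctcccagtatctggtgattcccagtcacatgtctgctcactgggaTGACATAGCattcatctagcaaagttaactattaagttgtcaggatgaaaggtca

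Abcb1a and Abcb1b are the pair of mouse P-glycoprotein genes that stand where humans have a single one. By brightest probe, Abcb1b had the largest rise of the 7 tested transporters. That probe stood at -0.81 and -0.93 in untreated cells, and at 1.94 and 1.68 with DEM. Signal itself went from 400.7 and 392.2 units to 1731.4 and 1320.4, so the groups were apart before scaling too. The log2 change was 2.68 ± 0.20 (adjusted p = 0.00117), and it stayed past the threshold in all 14 alternatives run (2.37 to 2.81, adjusted p from 0.000286 to 0.02). The second probe rose by 2.15 ± 0.32 (adjusted p = 0.00695), from levels of -2.27 and -2.63 to 0.07 and -0.67. A further probe was not well above background on any array, with levels of -7.01, -6.40, -4.31 and -5.85. Abcb1a was well above background on DEM array 1 alone (31.8 units), with 23.3 and 17.7 units in untreated cells and 16.3 on DEM array 2, and was not tested.

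Abcb1a, Abcb1b and Abcb4 are neighbours on mouse chromosome 5 in the RefSeq gene table. Abcb4, which is no member here, encodes a phospholipid translocase of bile canaliculi. Its levels of -0.80 and -1.10 without DEM and 1.60 and 1.51 with DEM did not overlap. The log2 change was 2.51 ± 0.20 (adjusted p = 0.00148). A further Abcb4 probe was not well above background on any array. No probe of Abcb1a or Abcb1b shared a run of 16 or more bases with a probe of another gene on the array, on either strand. Probes can lie at different places in related transcripts, so this cannot show whether a probe matches the transcript of a neighbour. Probes were not compared with transcripts, and binding through a less exact match was not tested. A probe of each of the 2 risen neighbours is shown so that they can be compared.
Abcb1b, probe 2: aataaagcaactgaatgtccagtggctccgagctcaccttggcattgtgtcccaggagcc
Abcb4, brightest probe: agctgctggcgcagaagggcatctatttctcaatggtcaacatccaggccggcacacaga

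**Figure D2:**
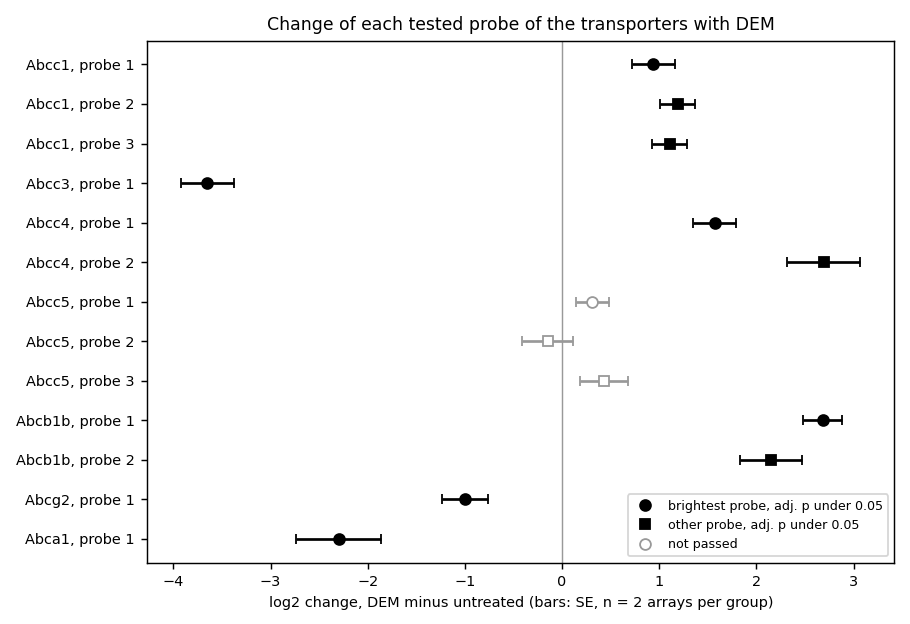
Log2 change with DEM (x axis) of each of the 13 transporter probes that were tested, with SE bars (n = 2 arrays per group); filled symbols had an adjusted p under 0.05 and circles mark the brightest probe of a gene. All 3 Abcc1 probes, both Abcc4 probes and both tested Abcb1b probes lie to the right of 0, the Abcc3, Abcg2 and Abca1 probes to the left, and the 3 Abcc5 probes near 0.

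Counted by probe, 13 of the 19 were tested, of which 7 were higher, 3 were lower and 3 did not pass. Over all 31771 probes tested, 14.6% were higher and 12.2% lower. A further 5 member probes were too dim, and 1 Abcg2 probe was left out for an outlier mark.

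Abcg2, also known as the breast cancer resistance protein, exports drugs, porphyrins and urate. Levels of 2.71 and 2.95 were measured without DEM, and of 1.56 and 2.10 with it. The DEM arrays were the lower ones and the groups did not overlap. Abcg2 fell by 1.00 ± 0.24 on the log2 scale (adjusted p = 0.0282). The call was lost without the variance trend (adjusted p = 0.0523), with spike-in scaling (0.663) and without untreated 1 (0.104) or untreated 2 (0.172). The probe left out for its outlier mark on untreated 1 read 4523.4, 2591.3, 595.8 and 647.0 units in the order untreated 1, untreated 2, DEM 1 and DEM 2, again with both DEM arrays lowest. The tested probe, the only one of the gene behind the call, is the following.
Abcg2, tested probe: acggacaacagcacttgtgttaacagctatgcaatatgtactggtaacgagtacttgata

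Abca1 moves cholesterol and phospholipid onto lipid-poor apolipoprotein A-I. Its single probe had levels of 2.25 and 2.39 in untreated cells and of 0.71 and -0.68 with DEM. The 2 DEM arrays were both below the untreated arrays but lay far apart (SD 0.98, against 0.10 for the untreated pair). Abca1 fell by 2.30 ± 0.44 on the log2 scale (adjusted p = 0.0147). DEM 2 set much of the size, since the change was -1.61 without it and -3.0 without DEM 1, and the call was lost without untreated 1 (adjusted p = 0.0728) or untreated 2 (0.087). Abcg1, which passes sterol to high-density lipoprotein, had 1 probe that was not well above background on any array (26.4, 11.7, 5.5 and 5.6 units, untreated first).

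Transcription of Abca1 is known to be driven by the liver X receptors (LXR). Of the genes that encode them, Nr1h3 rose. Its level was -4.46 and -4.60 in untreated cells and -1.61 and -2.57 with DEM, a change of 2.44 ± 0.39 (adjusted p = 0.00856). The untreated levels lay close to the lowest level well above background on those arrays (-4.82 and -4.80), and normexp background correction gave a change of 1.43. That call was lost without untreated 1 (adjusted p = 0.0569), untreated 2 (0.0687) or with spike-in scaling (0.0688). The partner LXR gene Nr1h2 had a log2 difference of 0.25 ± 0.18 (adjusted p = 0.34), short of the threshold. Of 20 tested genes of sterol efflux and LXR control, 3 rose, 7 fell and 10 did not pass, with a median of -0.63, beside 15.5% higher, 11.8% lower and a median of 0.16 over all genes. One of the 7, Ch25h, was well above background on the untreated arrays alone. Apoc1, an apolipoprotein gene, had the smallest adjusted p of the list (-4.17 ± 0.22, adjusted p = 0.00065), and its change was -3.32 with normexp. Scd2, a fatty acid desaturase, fell by 1.72 and Lpl, lipoprotein lipase, fell by 1.13. Spike-in scaling ended the calls of Scd2 (adjusted p = 0.0972) and Lpl (0.544), and Lpl also lost its call without untreated 1 (0.0708) or untreated 2 (0.0712). Soat1, which esterifies cholesterol for storage, rose by 1.51 ± 0.21 (adjusted p = 0.00623) on all 3 of its probes, and was not called with spike-in scaling (0.455) or without untreated 2 (0.0588). Spike-in scaling gave 0 higher and 2 lower genes in this list, and leaving out either untreated array gave 1 and 2.

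**Figure D3:**
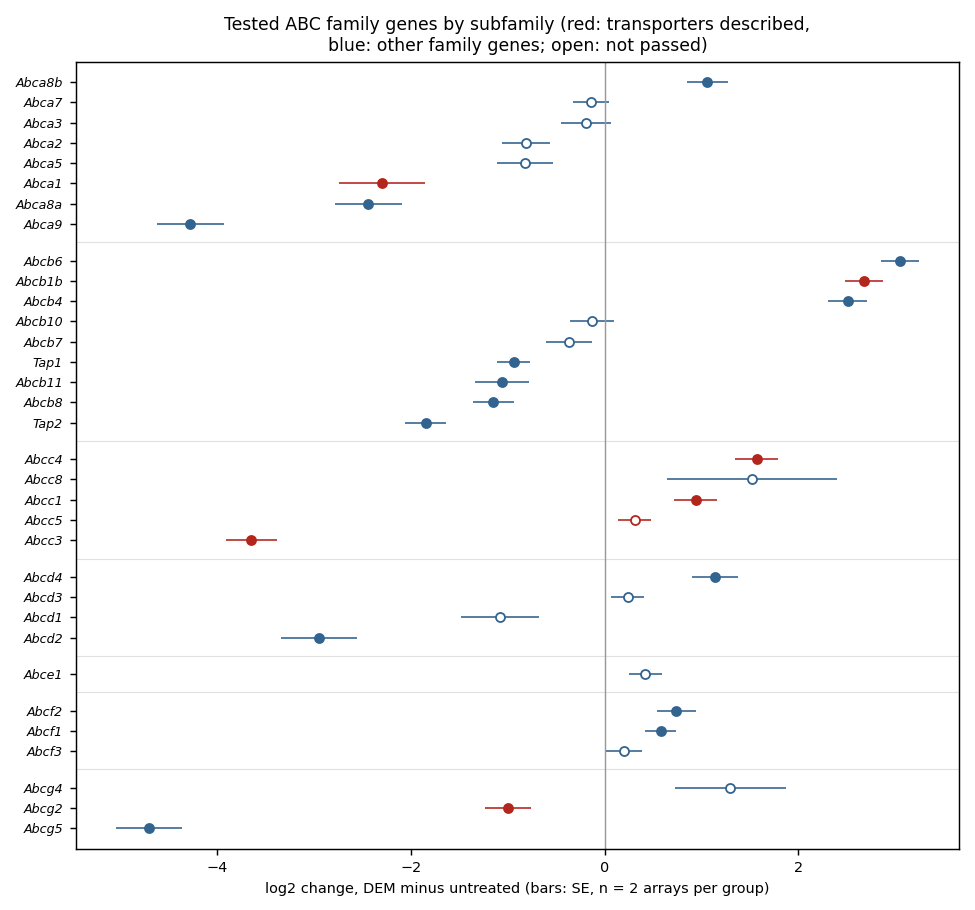
Log2 change with DEM (x axis, SE bars, n = 2 arrays per group) of every tested ABC family gene, grouped by subfamily A to G; red points are the transporters described, blue points the other family genes, and open points did not pass. Genes of subfamilies A, B, C, D and G lie on both sides of 0, from Abcb6 at 3.05 to Tap2 at -1.85 in subfamily B.

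The rest of the ABC family also moved both ways. The array held 43 further family genes, of which 26 were tested, 6 rose, 8 fell and 12 did not pass, with a median of -0.16. Of the 8, Abca8a, Abca9, Abcd2 and Abcg5 were well above background on the untreated arrays alone, so they could be tested only because they were high there. These counts, and those of the lists that follow, stand beside 15.5% of all genes higher, 11.8% lower and a median of 0.16. Abcb6, a porphyrin transporter, stood at 0.53 and 0.51 in untreated cells and at 3.38 and 3.75 with DEM, a rise of 3.05 ± 0.20 (adjusted p = 0.000981). Tap2, a subunit of the peptide transporter of antigen presentation, fell by 1.85 ± 0.21, and Abcb8, a mitochondrial transporter, fell by 1.15 ± 0.21. Abcg5, a sterol exporter of gut and liver, was at least 7.03-fold lower and Abca9 at least 6.21-fold lower. Normexp gave smaller changes, of -1.63 and -1.45 on the log2 scale, which lie below these bounds. With the processing used throughout, Abcd2, which brings fatty acids into peroxisomes, and Abca8a were at least 1.56-fold and 1.73-fold lower. For both, normexp gave -0.25 on the log2 scale, which is below these bounds. The calls of Abcd2 and Abca8a were lost with normexp background correction (adjusted p = 0.143 and 0.118), and those of Tap2 and Abcb8 with spike-in scaling (adjusted p = 0.103 and 0.554). Without untreated 1, Abcd2 (adjusted p = 0.0604), Abca8a (0.0711) and Abcb8 (0.0874) did not pass, and without untreated 2, Abca8a (0.0632) and Abcb8 (0.134) did not. Leaving out untreated 1 gave 2 higher and 3 lower family genes, leaving out untreated 2 gave 2 and 4, and spike-in scaling gave 2 and 4. Averaging all kept probes gave 3 higher, and normexp gave 5 lower. Requiring all 4 arrays above background gave 4 lower, and no filter on dim probes gave 17 higher and a median of 0.43.

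Regulators of the transporters mostly did not pass. Of 21 tested, 5 rose, 0 fell and 16 did not pass, with a median of 0.30. The small Maf genes Mafg and Maff, partners of NRF2, rose by 1.91 ± 0.18 (adjusted p = 0.00228) and 1.62 ± 0.16 (adjusted p = 0.00243). The gene of the xenobiotic receptor CAR, Nr1i3, went from -3.36 and -3.21 to 1.35 and -0.58, a rise of 3.67 ± 0.60 (adjusted p = 0.00926). The change was 2.70 without DEM 1, 4.63 without DEM 2 and 2.77 with normexp. Its call was lost when untreated 1 (adjusted p = 0.0576) or untreated 2 (0.0577) was left out. Keap1, the sensor that holds NRF2 down, also rose (0.88 ± 0.15, adjusted p = 0.0115). Nfe2l2, which encodes NRF2, had a log2 difference of 0.71 ± 0.22 and missed the threshold (adjusted p = 0.0636). Ahr, the aryl hydrocarbon receptor gene, had a log2 difference of 0.03 ± 0.32 (adjusted p = 0.956). Mafg and Maff lost their calls with spike-in scaling (adjusted p = 0.16 and 0.335), which left 1 higher regulator, and 2 were higher without either untreated array.

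Genes that make, cleave or take up the conjugates carried by these pumps were tested in 18 cases, of which 5 rose, 8 fell and 5 did not pass, with a median of -0.19. Ggt5, Ggt6, Sult1a1 and Slco4a1, among the 8, were well above background on the untreated arrays alone. The median turned to 0.27 when all 4 arrays had to be above background and to 0.34 with no filter. The 5 higher genes, with their log2 changes, were Chac1 (2.30), Slco2a1 (2.02), Ugt1a6b (1.26), Ugdh (1.05) and Cndp2 (1.02). Among lower ones were ectoenzymes that break glutathione conjugates down outside the cell. Anpep, an aminopeptidase of the cell surface, stood at 2.95 and 3.14 in untreated cells and at -0.58 and -0.38 with DEM, and fell by 3.52 ± 0.19 (adjusted p = 0.00065). Dpep1, a dipeptidase, fell by 1.80 ± 0.18 and Ggt6, a gamma-glutamyltransferase family gene, was at least 5.13-fold lower (-1.29 on the log2 scale with normexp, which is below that bound). Alox5ap, the protein that feeds leukotriene synthesis upstream of the MRP1 substrate, fell by 3.22 ± 0.23 (adjusted p = 0.00112). Alox5, Ltc4s and Ggt1 of the same list were on the array but were not tested. Spike-in scaling ended the Dpep1 call (adjusted p = 0.111) and left 1 higher and 4 lower genes. Leaving out either untreated array gave 2 and 4, and requiring all 4 arrays above background gave 4 lower.

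Of 9 tested scaffold genes that hold transporters at the membrane, 4 fell, 0 rose and 5 did not pass, with a median of -0.69. The raft protein gene Flot1 fell by 2.45 ± 0.19 (adjusted p = 0.00125). The PDZ scaffold genes Slc9a3r2 and Slc9a3r1, which tether transporters to the actin linker ezrin, fell by 2.28 ± 0.25 and 1.94 ± 0.26. Cav1, caveolin, fell by 1.00 ± 0.19. Spike-in scaling ended the calls of Slc9a3r1 and Cav1 (adjusted p = 0.0703 and 0.663), and Cav1 also lost its call when untreated 1 (adjusted p = 0.12) or untreated 2 (0.0769) was left out.

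**Figure D4:**
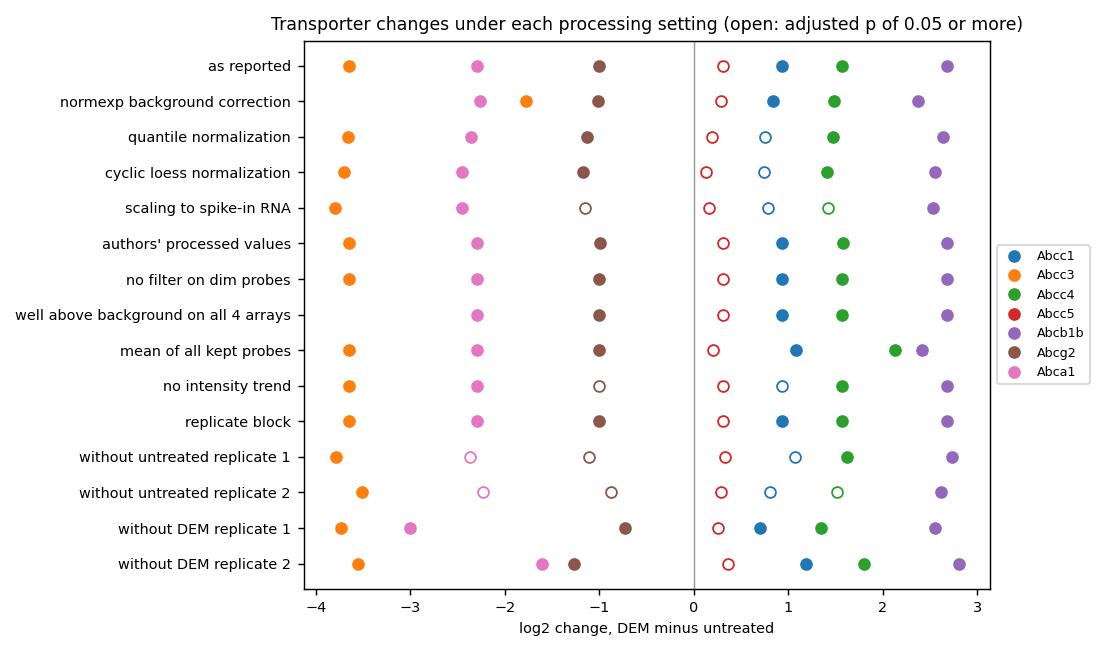
Log2 change with DEM (x axis) of the 7 tested transporters under each processing setting (y axis); filled points had an adjusted p under 0.05. Each gene keeps its side of 0 in every setting drawn, and many of these settings could not have turned it. The Abcb1b and Abcc3 points are filled throughout, and the Abcc5 points are open throughout.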

How the data were processed

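RNA of 4 samples was labelled with Cy3, and each sample was hybridised to its own array of a custom mouse design by Agilent. Spot intensity was read, per the file headers, with Feature Extraction 10.7.3.1, with spatial and multiplicative detrending and surrogates for low values. The deposited series table holds log2 values of the authors. In each column at least 99.41% of values lay within 0.01 of the log2 processed signal once the 75th percentile was subtracted. Its medians were -4.39, -4.35, -4.30 and -4.36, and it was used as an alternative.

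Control spots and 130 probes with an outlier mark were left out, log2 processed signal was centred on the 75th percentile, and probes well above background on at least 2 arrays were kept (31771). The brightest kept probe stood for a gene. Probes were named through the RefSeq gene table. limma 3.58.1 in R 4.3.3 (lmFit, eBayes with trend, 2 residual and 4.03 prior degrees of freedom) compared the groups, two-sided, with Benjamini-Hochberg adjustment over 24658 genes, or over all kept probes where probes are named. It was also run on simulated data with independent noise and few changed genes. Those settings differ from these data, so that run does not vouch for the calls here. The number of arrays limits the precision. Where a group had no spot well above background, the fold is a lower bound against the lowest level well above background (log2 -4.82 to -4.16). It is a bound for the processing used throughout and not for others. That level is the dimmest spot so marked on each array and is no detection limit. With normexp, the change of every gene given such a bound was smaller than its bound.

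The members and the gene lists were chosen with earlier results of these data known. Abcb5 was added to the family list, and the promoter motif was chosen, after seeing the files. The rule named all members, the 8 other family genes and the 4 genes of each other list with the smallest adjusted p. Keap1, Nfe2l2, Nr1h2, Ahr, Ch25h, Ggt5, Sult1a1, Slco4a1, Chac1, Slco2a1, Ugt1a6b, Ugdh and Cndp2 were named after their values were seen. The untested Alox5, Ltc4s and Ggt1 were also named after the results were known. The labels give arrays of different groups no link beyond the replicate number. Deviations from the group mean had a correlation of 0.084 between arrays of the same number. With 2 arrays per group, the deviations of replicate 2 mirror those of replicate 1, so the 2 pairs are not separate evidence. The scaling percentile relative to the spike-in RNA did go with the number. It was -2.76 (untreated) and -2.78 (DEM) for replicate 1, and -3.41 and -3.7 for replicate 2. Whether arrays of the same number shared a batch was not tested. Figures were drawn with matplotlib 3.10.9.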

Additional observations from a re-analysis of the deposited data

How the results depend on the processing

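The 7 tested transporters kept their direction in all 97 combinations of gene and alternative, and 83 of these kept their side of the threshold. In many alternatives the direction could not have turned. Leaving out an array cannot reverse groups that do not overlap. The replicate block and the fit without variance trend leave the log2 change as it was. The 83 include the 14 alternatives of Abcc5, which passed in none. Of the 97, a further 14 lost a call, in Abcc1 (6), Abcg2 (4), Abcc4 (2) and Abca1 (2), and the values stand beside those genes. Abcc3 had no value where probes had to be well above background on all 4 arrays. Against 3 higher and 3 lower transporters, 1 was higher with scaling to spike-in RNA. Leaving out 1 array at a time gave 1 to 3 higher and 1 to 3 lower transporters, with 1 lower without untreated 1 and, without untreated 2, 1 higher and 1 lower. A fit with 1 array left in a group assumes that it varies like the other pair, but the SD of the difference within a pair was 0.631 with DEM and 0.515 without. Over all genes, 3812 were higher and 2900 lower. Higher genes numbered 6465 with normexp, 2529 with cyclic loess, 17297 with no filter on dim probes and 362 with spike-in scaling, where 868 were lower. Leaving out 1 array gave 644 to 4488 higher and 802 to 3814 lower genes. Higher genes were 56.8% of all calls, 46.9% after quantile normalization, 40.8% after cyclic loess, 70.1% with normexp and 29.4% with spike-in scaling. That scaling moves arrays of one group apart: relative to the spike-in RNA, the 75th percentile lay at -2.76 and -3.41 in untreated cells and at -2.78 and -3.70 with DEM. With the replicate number as a block, 4473 genes were higher and 3378 lower, the transporters were called as without it, and 11 sterol genes were lower against 7. Causes of these shifts were not tested beyond the values given. The median change over all genes was 0.16 and lay at 0.47 with no filter and 0.01 with cyclic loess. Signal near background limits Abcc2, Abcb1a, Abcg1 and the DEM level of Abcc3.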
